A study of Mus musculus with 15 samples.

Results

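The genes described here mark the fibroblasts of the arterial adventitia, the outer coat of the vessel, in 2 states. A set of 19 genes marks resting adventitial fibroblasts and a set of 19 marks fibroblasts that have become activated, 38 genes in all. Each gene was read from the probe set that carries its symbol alone, and where a gene had several such probe sets, from the one that was brightest on average. In this way 32 of the 38 genes were measured, 16 resting and 16 activated, out of 12848 genes with such a probe set and 15095 probe sets in the table. The resting genes Ly6a, Ly6c1 and Entpd2 and the activated genes Srpx, Lrrc15 and Fkbp10 had no such probe set and were not analysed here. Entpd2 and Srpx share a probe set with other symbols. The genes were compared between the aortae of 8 mice given angiotensin II (AngII) at 1 µg/kg/min and of 7 mice given saline vehicle, each for 3 weeks by a minipump under the skin. AngII is a peptide hormone that constricts arteries and raises blood pressure. All mice were C57BL6 and 2 months old, the labels name no engineered allele, and 1 array was run per mouse. The aorta down to the iliac bifurcation was used after fat and loose connective tissue had been cleaned off under the microscope, so how much of the outer coat stayed on each aorta is not known.

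Adventitial fibroblasts lie outside the smooth muscle layer in a mesh of collagen. At rest they carry surface proteins such as Cd34 and Ly6a, secrete small matrix proteins such as dermatopontin, and include progenitors of other stromal cells. After injury, pressure or inflammation they divide, migrate and secrete fibrillar collagen, fibronectin, periostin and tenascin, and they put Fap, cadherin-11 and podoplanin on their surface. Few of these genes belong to fibroblasts alone. Smooth muscle cells make Mfge8, Fn1, Sparc and Tnc, endothelial cells carry Cd34, and macrophages and other leukocytes express S100a4.

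All values are log2 signals after robust multiarray analysis (RMA), and a change is the AngII mean minus the vehicle mean on that scale. Probe sets differ in how brightly they bind, so a level is compared only with the same gene in other arrays. A gene was called when its adjusted p from limma, with the Benjamini-Hochberg correction over all 15095 probe sets, was under 0.05. General fibroblast markers were present in every array, with Dcn between 12.43 and 12.97 in AngII and between 12.45 and 12.56 in vehicle arrays. The same held for smooth muscle, with Acta2 between 13.43 and 13.94 in AngII and between 13.81 and 13.94 in vehicle arrays. In whole tissue, more cells of a type and more RNA per cell cannot be told apart. AngII 8, AngII 5 and vehicle 1 had the lowest correlations with the rest of the arrays (median r = 0.954, 0.959 and 0.959). The submitters' sample names fall into 2 naming series, A with AngII 1 to 3 and vehicle 1 and 2, and B with AngII 4 to 8 and vehicle 3 to 7, and the labels do not say what separates them.

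Of the activated fibroblast genes 8 of 16 passed the test as higher in AngII-infused aortae, and most resting genes did not pass. The activated genes that rose were S100a4, Srpx2, Cthrc1, Emp1, Cdh11, Fn1, Pdpn and Ccdc80, none fell, and the other 8 did not pass. Of the 16 resting genes 4 rose, namely Thy1, Dpt, Cd248 and Medag, 1 fell, Abi3bp, and 11 did not pass. Over all probe sets 5.33% were called, 2.42% as higher and 2.91% as lower. The median change was 0.47 among the activated genes and 0.09 among the resting genes, beside -0.01 over all probe sets. All 16 activated genes and 10 of the 16 resting genes had a change above 0, as had 47.4% of all probe sets. At an unadjusted p under 0.05, 13 activated genes were higher and none was lower, and 4 resting genes were higher and 2 lower, beside 9.29% higher and 12.6% lower among all probe sets. Significance analysis of microarrays (SAM) at q = 0 called Dpt, Srpx2, Cthrc1, S100a4 and Emp1 as higher, 5 of the 32 genes, and 0.835% of all probe sets as higher. The study itself picked Dpt, Cdh11 and Srpx2 from these arrays for measurement by qRT-PCR or western blotting. The direction of these is therefore not independent evidence. The difference between the 2 sets was not tested.

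**Figure D1:**
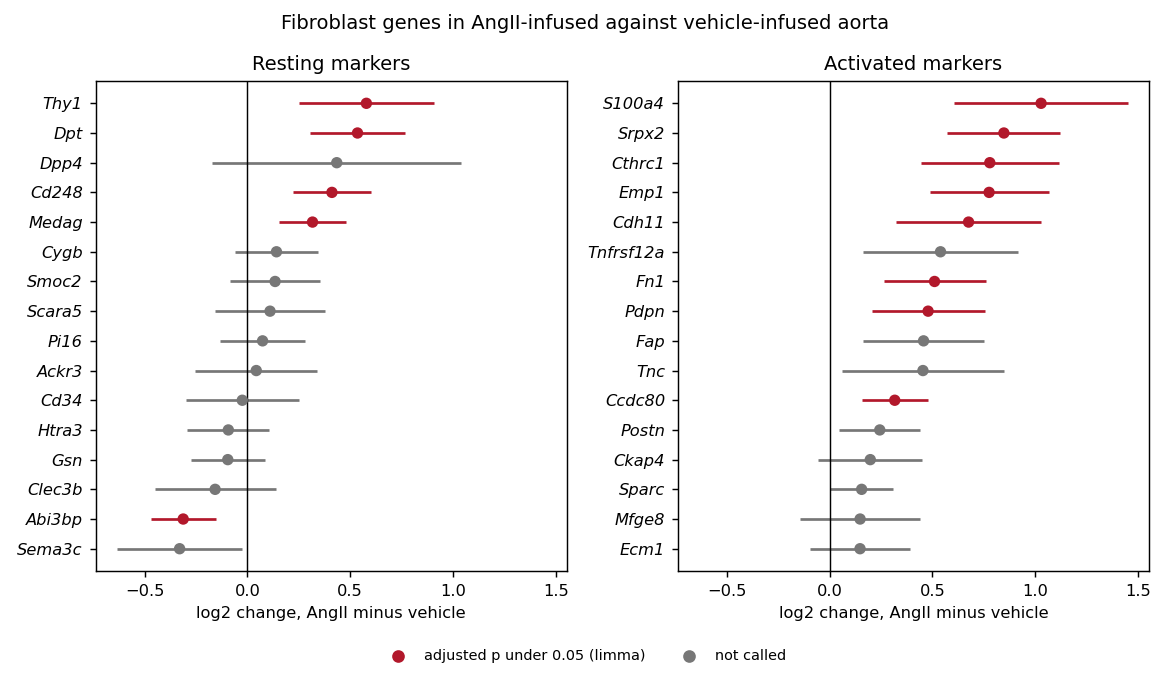
Changes of the 16 resting and 16 activated fibroblast genes, AngII minus vehicle on the log2 scale (8 against 7 arrays), with points for the estimate, lines for its 95% interval from limma, and red for genes called at an adjusted p under 0.05. All 16 activated genes lie right of 0, from 0.15 for Ecm1 to 1.03 for S100a4, while the resting genes lie on both sides, from -0.33 for Sema3c to 0.58 for Thy1.

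Promoters of 4 genes that rose are printed because the results turn on these genes and each window holds a match to 1 or more of 4 motifs searched. Each is the 250 bases before the start site in RefSeq, build GRCm38.p6, on the strand of the gene, 5′ to 3′, with motif matches in capitals.
Emp1, chr6:135362681-135362930, + strand: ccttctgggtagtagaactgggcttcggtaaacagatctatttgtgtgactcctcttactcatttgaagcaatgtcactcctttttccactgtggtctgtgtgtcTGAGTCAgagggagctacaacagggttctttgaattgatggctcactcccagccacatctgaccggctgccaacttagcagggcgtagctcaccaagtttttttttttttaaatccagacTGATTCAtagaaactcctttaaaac
S100a4, chr3:90603520-90603769, + strand: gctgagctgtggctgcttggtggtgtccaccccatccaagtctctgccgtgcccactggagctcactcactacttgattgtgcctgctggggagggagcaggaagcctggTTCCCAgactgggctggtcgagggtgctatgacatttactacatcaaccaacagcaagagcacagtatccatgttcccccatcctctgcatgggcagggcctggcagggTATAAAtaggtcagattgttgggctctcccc
Srpx2, chrX:133908175-133908424, + strand: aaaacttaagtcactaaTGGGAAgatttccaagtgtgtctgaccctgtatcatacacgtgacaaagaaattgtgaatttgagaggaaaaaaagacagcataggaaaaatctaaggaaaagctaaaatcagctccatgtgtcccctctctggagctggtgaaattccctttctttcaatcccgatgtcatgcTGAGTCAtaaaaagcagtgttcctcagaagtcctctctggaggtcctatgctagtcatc
Dpt, chr1:164796413-164796662, + strand: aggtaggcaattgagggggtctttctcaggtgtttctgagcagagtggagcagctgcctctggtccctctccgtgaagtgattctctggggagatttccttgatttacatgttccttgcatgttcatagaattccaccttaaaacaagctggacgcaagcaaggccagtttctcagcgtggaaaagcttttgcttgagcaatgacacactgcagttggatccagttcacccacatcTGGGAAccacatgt
Emp1 has a further start site downstream, whose window held none of the motifs. The window shown holds the AP-1 motif TGANTCA at 2 places, whose first bases stand at -145 and -25 from the start site. In Srpx2 the AP-1 motif stands at -59 and the RBPJ motif TGGGAA at -233. S100a4 has the RBPJ motif on the opposite strand at -140 and the TATA motif TATAAA at -31, and Dpt has the RBPJ motif at -14. A window was at hand for 24 of the 38 genes, measured or not, and for 6 of the 12 that rose. The windows of Pdpn and Medag, which also rose, held none of the 4 motifs. Of the 24 genes, 5 (20.8%) held TGANTCA in at least 1 window, beside 7.82% of 27025 genes in the same table, and 8 (33.3%) held TGGGAA, beside 24.1%. TATAAA was found in 7 (29.2%), beside 14.3%, and the TEAD motif GGAATG in 2 (8.33%), beside 14.4%. Both strands were searched, TGANTCA reads the same on both, and GGAATG and TGGGAA can overlap in the letters GGAA. A match says only that these letters are in the window.

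Among the surface proteins of resting fibroblasts, Thy1 and Cd248 were higher in AngII-infused aortae, and Dpp4, Cd34, Ackr3 and Scara5 did not pass the test. Thy1 is a glycoprotein (CD90) anchored in the membrane of fibroblasts, neurons and T cells. Thy1 had log2 signals of 8.19, 8.26, 8.11, 7.47, 7.55, 7.63, 7.49 and 7.85 in AngII arrays 1 to 8, against 7.57, 7.14, 7.11, 7.49, 6.88, 7.64 and 6.85 in vehicle arrays 1 to 7. AngII 1 to 3 were the highest, and vehicle 1, 4 and 6 lay above the lowest AngII array. Thy1 changed by 0.58 on the log2 scale (95% interval 0.25 to 0.91, 1.49-fold with an interval of 1.19 to 1.87), with an adjusted p of 0.0399 from limma. Cd248, or endosialin, is a transmembrane glycoprotein of stromal cells. Cd248 had log2 signals of 9.33, 8.98, 8.88, 8.96, 8.97, 8.76, 8.78 and 9.14 in AngII arrays 1 to 8, against 8.58, 8.65, 8.58, 8.51, 8.23, 8.77 and 8.62 in vehicle arrays 1 to 7. Vehicle 6 alone reached into the AngII range, and 7 of 8 AngII arrays were above every vehicle array. Cd248 changed by 0.41 on the log2 scale (95% interval 0.22 to 0.60, 1.33-fold with an interval of 1.17 to 1.52), with an adjusted p of 0.0174 from limma. The limma call of Thy1 ended without any one of vehicle 2, 3, 4, 5 or 7 or AngII 1, 2, 3 or 8 (adjusted p up to 0.0943), and that of Cd248 held whichever single array was left out (2.28% to 7.94% of all probe sets were then called).
Dpp4, a peptidase (CD26) of progenitor-type adventitial fibroblasts, had the largest change above 0 among the resting genes that were not called. Dpp4 had log2 signals of 5.62, 5.51, 6.88, 6.17, 6.76, 6.35, 7.19 and 6.80 in AngII arrays 1 to 8, against 6.45, 5.81, 7.17, 5.81, 5.40, 5.56 and 5.63 in vehicle arrays 1 to 7. AngII 3, 5, 7 and 8 and vehicle 3 were high, and the groups overlapped over most of their ranges. Dpp4 changed by 0.43 on the log2 scale (95% interval -0.17 to 1.04, 1.35-fold with an interval of 0.888 to 2.06), with an adjusted p of 0.395 from limma. Cd34, a sialomucin of fibroblasts, endothelium and progenitor cells, changed by -0.02 (95% interval -0.30 to 0.25, adjusted p = 0.932 by limma). Ackr3, a receptor that takes up the chemokine CXCL12, changed by 0.04 (95% interval -0.25 to 0.34, adjusted p = 0.887), and Scara5, a ferritin receptor, by 0.11 (95% interval -0.16 to 0.38, adjusted p = 0.648).

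Among the secreted and intracellular proteins of resting fibroblasts, Dpt and Medag were higher, Abi3bp was lower, and 7 genes did not pass the test. Dpt encodes dermatopontin, a small matrix protein that binds decorin and speeds the assembly of collagen fibrils. Dpt had log2 signals of 11.59, 11.72, 11.98, 12.21, 12.35, 12.07, 12.19 and 12.07 in AngII arrays 1 to 8, against 11.59, 11.29, 11.80, 11.51, 11.45, 11.47 and 11.28 in vehicle arrays 1 to 7. Only vehicle 3 lay above the lowest AngII arrays, AngII 1 and 2, and the other 6 AngII arrays were above every vehicle array. Dpt changed by 0.54 on the log2 scale (95% interval 0.31 to 0.76, 1.45-fold with an interval of 1.24 to 1.7), with an adjusted p of 0.0123 from limma. Medag is a stromal gene named for a role in the formation of fat cells. Medag had log2 signals of 7.05, 7.11, 7.32, 7.29, 7.25, 7.27, 6.86 and 7.06 in AngII arrays 1 to 8, against 7.06, 6.71, 6.83, 6.85, 6.82, 6.93 and 6.65 in vehicle arrays 1 to 7. AngII 7 lay among the vehicle arrays, and vehicle 1 lay among the AngII arrays. Medag changed by 0.32 on the log2 scale (95% interval 0.15 to 0.48, 1.25-fold with an interval of 1.11 to 1.39), with an adjusted p of 0.027 from limma.
Abi3bp, a matrix protein that restrains growth and migration in cultured cells, was the resting gene that fell. Abi3bp had log2 signals of 10.16, 10.46, 10.15, 10.31, 10.25, 10.36, 10.01 and 9.95 in AngII arrays 1 to 8, against 10.50, 10.61, 10.36, 10.48, 10.59, 10.50 and 10.61 in vehicle arrays 1 to 7. Of the 8 AngII arrays 6 were below every vehicle array, and AngII 2 and 6 reached into the vehicle range. Abi3bp changed by -0.31 on the log2 scale (95% interval -0.47 to -0.15, 0.805-fold with an interval of 0.722 to 0.898), with an adjusted p of 0.0252 from limma. The limma call of Abi3bp ended without vehicle 2, 5 or 7 (adjusted p up to 0.0590), and that of Medag without vehicle 2, 5 or 7 or AngII 3 or 5 (adjusted p up to 0.0633), while that of Dpt held whichever single array was left out. Sema3c, a secreted semaphorin that guides migrating cells, had the lowest change of the 32 genes. Sema3c had log2 signals of 9.56, 10.01, 9.86, 9.77, 9.02, 10.06, 9.62 and 9.22 in AngII arrays 1 to 8, against 9.63, 9.74, 10.09, 10.14, 10.11, 10.00 and 10.07 in vehicle arrays 1 to 7. AngII 5 and 8 were lowest, 4 AngII arrays were below every vehicle array, and none was above the highest. Sema3c changed by -0.33 on the log2 scale (95% interval -0.63 to -0.02, 0.796-fold with an interval of 0.644 to 0.983), with an adjusted p of 0.191 from limma.
The other resting genes changed by less than 0.2 on the log2 scale in either direction. Clec3b, or tetranectin, which binds plasminogen, changed by -0.16 (95% interval -0.45 to 0.14, adjusted p = 0.544 by limma). Gsn, the actin-severing protein gelsolin, changed by -0.10 (95% interval -0.28 to 0.08, adjusted p = 0.549) and Htra3, a secreted serine protease, by -0.09 (95% interval -0.29 to 0.11, adjusted p = 0.605). Above 0 were Pi16, a peptidase inhibitor that marks adventitial progenitors, at 0.07 (95% interval -0.14 to 0.28, adjusted p = 0.704), Smoc2, a calcium-binding matrix protein, at 0.13 (95% interval -0.08 to 0.35, adjusted p = 0.47), and Cygb, the oxygen-binding protein cytoglobin, at 0.14 (95% interval -0.06 to 0.34, adjusted p = 0.407).

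**Figure D2:**
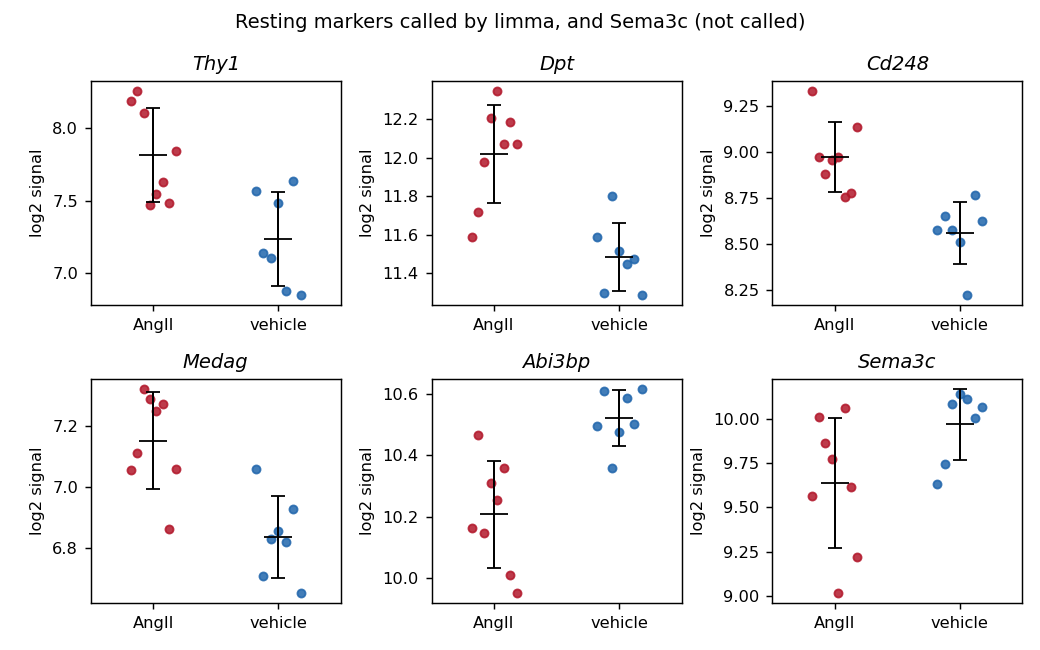
Log2 signal of 5 called resting genes and of Sema3c, which was not called, with 1 point per mouse (8 AngII and 7 vehicle arrays, each panel with its own axis) and bars for the mean and SD. Thy1, Dpt, Cd248 and Medag lie higher and Abi3bp lower in AngII arrays, with some overlap in every panel.

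Secreted proteins and matrix proteins of activated fibroblasts gave 4 genes that rose, Srpx2, Cthrc1, Fn1 and Ccdc80, and 5 that did not pass the test. Srpx2 encodes a secreted sushi-repeat protein that binds the urokinase receptor in human cells. Srpx2 had log2 signals of 8.19, 8.51, 8.31, 8.38, 8.23, 7.41, 8.13 and 8.23 in AngII arrays 1 to 8, against 7.62, 7.22, 7.49, 7.34, 7.27, 7.09 and 7.26 in vehicle arrays 1 to 7. AngII 6 lay among the vehicle arrays, and the other 7 AngII arrays were at least 8.13 and above every vehicle array. Srpx2 changed by 0.85 on the log2 scale (95% interval 0.57 to 1.12, 1.8-fold with an interval of 1.49 to 2.18), with an adjusted p of 0.00336 from limma. Cthrc1 is secreted by activated fibroblasts and smooth muscle cells of injured rodent arteries. Cthrc1 had log2 signals of 6.72, 6.67, 6.75, 6.96, 7.49, 6.15, 6.96 and 7.34 in AngII arrays 1 to 8, against 6.18, 5.83, 6.29, 6.21, 5.89, 6.33 and 6.00 in vehicle arrays 1 to 7. AngII 5 and 8 were highest, and AngII 6 was again among the vehicle arrays. Cthrc1 changed by 0.78 on the log2 scale (95% interval 0.44 to 1.11, 1.72-fold with an interval of 1.36 to 2.16), with an adjusted p of 0.0123 from limma.
Fn1 encodes fibronectin, on which cells lay down collagen. Fn1 had log2 signals of 13.23, 13.32, 13.07, 13.06, 12.85, 12.40, 12.94 and 13.01 in AngII arrays 1 to 8, against 12.61, 12.51, 12.25, 12.27, 12.36, 12.56 and 12.77 in vehicle arrays 1 to 7. AngII 1 and 2 were highest, and AngII 6 lay below 4 of the 7 vehicle arrays. Fn1 changed by 0.51 on the log2 scale (95% interval 0.26 to 0.76, 1.42-fold with an interval of 1.2 to 1.69), with an adjusted p of 0.0214 from limma. Ccdc80 is a secreted protein of the extracellular matrix. Ccdc80 had log2 signals of 10.37, 10.51, 10.41, 10.44, 10.66, 10.04, 10.45 and 10.52 in AngII arrays 1 to 8, against 10.05, 10.09, 10.08, 10.23, 9.97, 10.17 and 10.17 in vehicle arrays 1 to 7. Here too AngII 6 was within the vehicle range, below 6 vehicle arrays, while the other 7 were above every vehicle array. Ccdc80 changed by 0.32 on the log2 scale (95% interval 0.16 to 0.48, 1.25-fold with an interval of 1.11 to 1.39), with an adjusted p of 0.0252 from limma. A dimmer probe set of Ccdc80 (mean 6.71) differed by 0.06 between the groups, with an adjusted p of 0.546 by limma. The limma calls of Srpx2 and Cthrc1 held whichever single array was left out, that of Fn1 ended without vehicle 5 (adjusted p = 0.0527) and that of Ccdc80 without vehicle 2 or 5 (adjusted p up to 0.0612).
Tnc, the adhesion-modulating glycoprotein tenascin C, changed by 0.45 (95% interval 0.06 to 0.85, adjusted p = 0.165 by limma). AngII 1, 2 and 3 had a Tnc signal of 10.26, 10.44 and 9.95, the other AngII arrays lay between 9.10 and 9.65, and the vehicle arrays between 8.79 and 9.48. Postn, or periostin, a matrix protein used as a marker of activated fibroblasts, changed by 0.24 (95% interval 0.05 to 0.44, adjusted p = 0.137). Postn was above every vehicle array in 6 AngII arrays, and AngII 6 was at 12.17 within the vehicle range of 12.06 to 12.33, and AngII 5, at 12.05, was just below it. With array weights (adjusted p = 0.0496, beside 8.43% of all probe sets called) or without AngII 5 (adjusted p = 0.0481, beside 3.23%) limma called Postn as higher. Sparc, a collagen-binding matricellular protein, changed by 0.16 (95% interval 0.00 to 0.31, adjusted p = 0.224), Ecm1, extracellular matrix protein 1, by 0.15 (95% interval -0.09 to 0.39, adjusted p = 0.478), and Mfge8, which bridges integrins and dying cells, by 0.15 (95% interval -0.14 to 0.44, adjusted p = 0.564).

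Surface and intracellular proteins of activated fibroblasts included the gene that changed most, S100a4, and the gene whose groups did not overlap, Emp1. S100a4 is a small calcium-binding protein that acts on non-muscle myosin and is also called fibroblast-specific protein, although leukocytes express it too. S100a4 had log2 signals of 8.72, 9.02, 8.82, 8.76, 8.22, 7.57, 8.76 and 9.10 in AngII arrays 1 to 8, against 7.21, 7.41, 7.61, 7.50, 7.38, 7.99 and 8.05 in vehicle arrays 1 to 7. All AngII arrays but AngII 6 were above every vehicle array. S100a4 changed by 1.03 on the log2 scale (95% interval 0.61 to 1.45, 2.04-fold with an interval of 1.52 to 2.73), with an adjusted p of 0.0102 from limma. Emp1, epithelial membrane protein, spans the membrane 4 times and is made by many cell types. Emp1 had log2 signals of 10.25, 10.29, 10.38, 9.59, 10.26, 9.90, 9.78 and 10.10 in AngII arrays 1 to 8, against 9.57, 9.48, 9.35, 9.10, 9.36, 9.48 and 8.73 in vehicle arrays 1 to 7. The lowest AngII array, AngII 4, was just above the highest vehicle array, vehicle 1, and 0.55% of all probe sets showed such a separation. Emp1 changed by 0.78 on the log2 scale (95% interval 0.49 to 1.07, 1.71-fold with an interval of 1.4 to 2.09), with an adjusted p of 0.00704 from limma.
Cdh11, the cadherin that joins mesenchymal cells to each other, was higher. Cdh11 had log2 signals of 9.60, 9.72, 9.42, 9.07, 9.36, 8.77, 8.68 and 9.28 in AngII arrays 1 to 8, against 9.02, 8.97, 8.23, 8.23, 8.32, 8.58 and 8.58 in vehicle arrays 1 to 7. AngII 6 and 7 overlapped with vehicle 1 and 2, and AngII 1 and 2 were highest. Cdh11 changed by 0.68 on the log2 scale (95% interval 0.32 to 1.03, 1.6-fold with an interval of 1.25 to 2.04), with an adjusted p of 0.0277 from limma. Pdpn, or podoplanin, is a mucin-type protein of activated fibroblasts that lymphatic endothelium and some macrophages also carry. Pdpn had log2 signals of 8.19, 7.92, 8.44, 8.06, 8.67, 8.12, 8.07 and 8.75 in AngII arrays 1 to 8, against 8.07, 7.77, 7.87, 7.88, 7.48, 7.99 and 7.52 in vehicle arrays 1 to 7. AngII 5 and 8 were highest, and AngII 2 and 4 lay below vehicle 1. Pdpn changed by 0.48 on the log2 scale (95% interval 0.20 to 0.75, 1.39-fold with an interval of 1.15 to 1.69), with an adjusted p of 0.0418 from limma. The limma calls of S100a4 and Emp1 held whichever single array was left out. That of Cdh11 ended without vehicle 3, 4, 5 or 7 or AngII 3 or 5 (adjusted p up to 0.0684), and that of Pdpn without vehicle 2, 3, 4, 5 or 7 or AngII 1, 3, 5, 7 or 8 (adjusted p up to 0.0975).
Fap, fibroblast activation protein, is a surface protease used to define activated fibroblasts, and it did not pass the test. Fap had log2 signals of 7.41, 7.65, 7.74, 8.05, 8.51, 7.88, 7.87 and 8.21 in AngII arrays 1 to 8, against 7.80, 7.39, 7.50, 7.68, 7.39, 7.24 and 7.20 in vehicle arrays 1 to 7. AngII 4 to 8 of naming series B were above every vehicle array, and AngII 1 to 3 of series A lay within the vehicle range. Fap changed by 0.46 on the log2 scale (95% interval 0.16 to 0.75, 1.37-fold with an interval of 1.12 to 1.68), with an adjusted p of 0.0677 from limma. With the naming series as a block limma called Fap as higher (adjusted p = 0.0473), and likewise with array weights (adjusted p = 0.0483). Without vehicle 1 (adjusted p = 0.0394) or without AngII 1 (adjusted p = 0.0343) limma called Fap too. Of all probe sets 6.64%, 8.43%, 7.25% and 4.35% were called in these fits, in that order, beside 5.33% in the fit reported above.
Tnfrsf12a, the receptor of the cytokine TWEAK, had the largest change among the activated genes that were not called. Tnfrsf12a had log2 signals of 9.93, 9.91, 9.85, 8.90, 8.98, 9.22, 9.05 and 9.00 in AngII arrays 1 to 8, against 8.56, 8.92, 8.69, 9.02, 8.82, 9.20 and 8.52 in vehicle arrays 1 to 7. The arrays AngII 1 to 3 of naming series A stood apart at the top, and AngII 4 to 8 overlapped with the vehicle arrays. Tnfrsf12a changed by 0.54 on the log2 scale (95% interval 0.16 to 0.91, 1.45-fold with an interval of 1.12 to 1.88), with an adjusted p of 0.088 from limma. Ckap4, a membrane protein of the endoplasmic reticulum, changed by 0.20 (95% interval -0.05 to 0.45, adjusted p = 0.349 by limma).

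**Figure D3:**
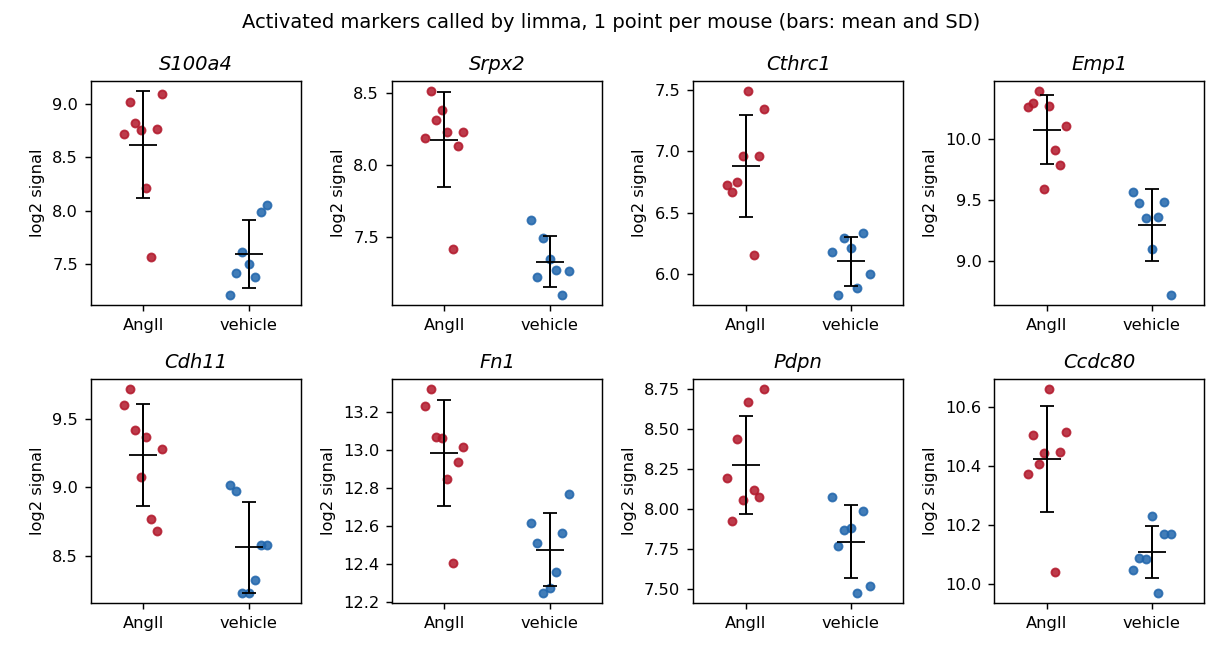
Log2 signal of the 8 called activated genes, with 1 point per mouse (8 AngII and 7 vehicle arrays, each panel with its own axis) and bars for the mean and SD. Emp1 shows no overlap, and in the panels of S100a4, Srpx2, Cthrc1, Fn1 and Ccdc80 a single AngII point, AngII 6, lies within the vehicle range.

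The AngII arrays differed in which of the genes were high. AngII 6 was the lowest AngII array for 7 of the 16 activated genes, Srpx2, Cthrc1, S100a4, Fn1, Ccdc80, Tnc and Sparc. In AngII 6 only 7 of 16 activated genes were above their vehicle mean, with a median difference of -0.02, while 14 of 16 resting genes were above it, with a median difference of 0.37. In the other 7 AngII arrays 13 to 16 of the 16 activated genes were above their vehicle mean, with median differences between 0.30 and 0.68, and 5 to 13 of the 16 resting genes were, with median differences between -0.08 and 0.30. AngII 6 also had the lowest adipocyte mean (8.59) and the highest endothelial mean (9.53) of the AngII arrays. Without AngII 6 the median change was 0.52 for the activated and 0.04 for the resting genes, and the same 13 genes were called. Of all probe sets 7.94% were then called, beside 5.33% with all arrays.
AngII 5 had high values of both sets, with median differences of 0.46 for activated and 0.30 for resting genes. AngII 1 to 3, the arrays of naming series A, were the highest of all for Tnfrsf12a, Tnc and Thy1, and AngII 1 and 2 were also the highest for Mfge8, Ckap4 and Ecm1. Leaving out AngII 8, AngII 5 and vehicle 1 together, the 3 least correlated arrays, 7 of the 13 called genes were still called, Dpt, Medag, Srpx2, Cthrc1, Fn1, S100a4 and Emp1, and 3.52% of all probe sets were.

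**Figure D4:**
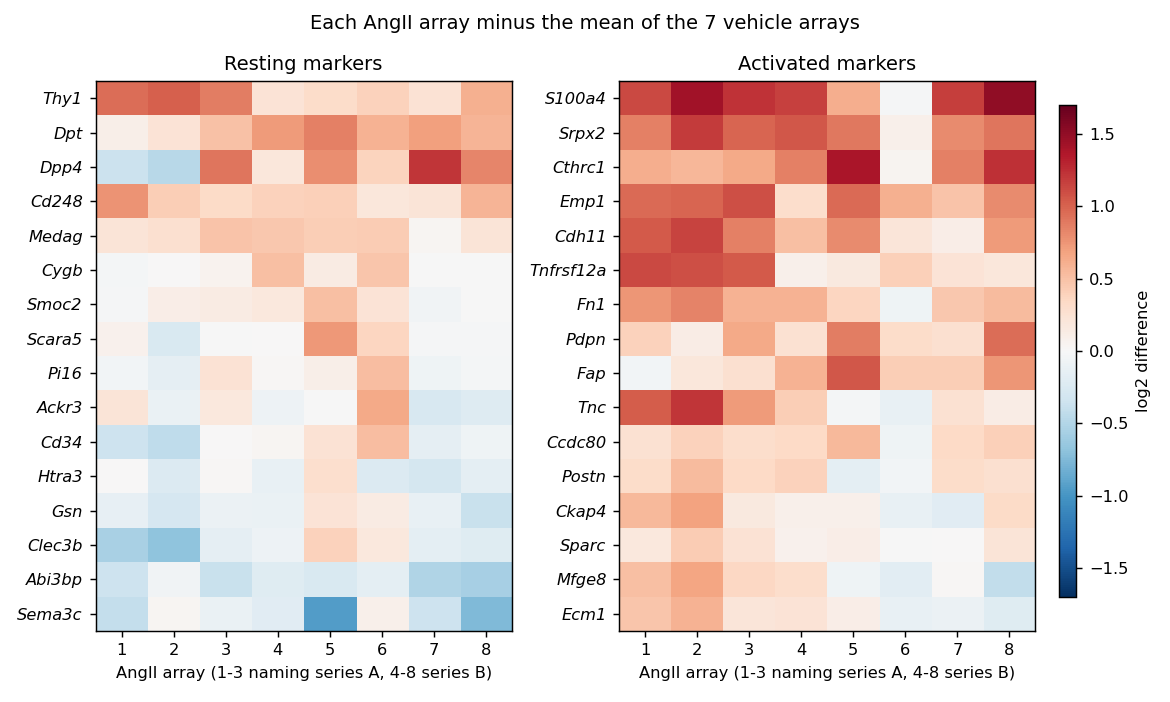
Log2 signal of each AngII array minus the mean of the 7 vehicle arrays, by gene, for 16 resting and 16 activated genes (red above, blue below the vehicle mean). The column of AngII 6 is pale or blue for most activated genes and red for several resting genes, and the AngII 1 to 3 columns are the reddest for Thy1, Tnfrsf12a and Tnc.

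Within naming series B (5 AngII and 5 vehicle arrays) limma called Dpt (0.67), Cdh11 (0.64), Srpx2 (0.79), Fap (0.70) and Emp1 (0.72) as higher and no gene as lower, beside 2.47% of all probe sets called. Within series A (3 AngII and 2 vehicle arrays) it called S100a4 (1.55) as higher, beside 0.053%. A call lost within a series also reflects fewer arrays. In series B the changes of Cthrc1, S100a4, Pdpn, Fn1, Thy1 and Cd248 were 0.84, 0.77, 0.58, 0.41, 0.40 and 0.38, and in series A they were 0.71, 1.55, 0.26, 0.65, 0.83 and 0.45, all above 0. Some genes differed more between the series. Tnfrsf12a changed by 0.18 in series B and by 1.16 in series A, Tnc by 0.21 and 0.80, Fap by 0.70 and 0.01, and Sema3c by -0.55 and 0.12, with series B named first. For these 4 genes the test of the difference between the series had an unadjusted p under 0.05, and after adjustment no gene of the 32 and no probe set passed (smallest adjusted p among the 32 genes 0.729 from limma). With the naming series as a block all 13 calls held and Fap was called as well, beside 6.64% of all probe sets.

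Further genes of resting and activated fibroblasts, outside the 38, were read the same way. For these and the later lists the shares over all probe sets were 2.42% called higher and 2.91% called lower. All AngII arrays lay above all vehicle arrays for 0.55% of all probe sets. Of 18 measured further genes of resting fibroblasts none was higher and Tppp3, a tubulin-binding protein that marks progenitors of connective tissue, was lower by 0.62 on the log2 scale (adjusted p = 0.0263 from limma), with 7 of 8 AngII arrays below every vehicle array. The median change of these 18 genes was 0.30, and 14 of them had a change above 0. Of 26 measured further genes of activated fibroblasts 9 were higher, none was lower, and 17 did not pass the test, with a median change of 0.45. The 4 that changed most were Thbs1, Col8a1, Comp and Timp1, by 1.77, 1.56, 1.24 and 1.20, and for each of them the AngII arrays all lay above the vehicle arrays. The study also picked Timp1 from these arrays for qRT-PCR, as it did Cd68 and Tnmd, given below. The direction of Timp1, Cd68 and Tnmd is therefore not independent evidence either. Of the classical genes of myofibroblasts, contractile fibroblasts that make collagen, Col1a1, the chain of type I collagen, changed by 0.50 (adjusted p = 0.0979) and Acta2, the actin of smooth muscle and myofibroblasts, by -0.14 (adjusted p = 0.271). Without vehicle 1 (adjusted p = 0.0477) or without AngII 6 (adjusted p = 0.0224) limma called Col1a1 as higher. Of all probe sets 7.25% and 7.94% were then called, beside 5.33% with all arrays.
General fibroblast genes, expected in resting and activated cells alike, mostly did not pass. Of 6 measured, Lum, the collagen-binding proteoglycan lumican, rose by 1.02 (adjusted p = 0.00164 from limma), with all AngII arrays above all vehicle arrays. The receptor Pdgfra changed by 0.07 (adjusted p = 0.715) and the proteoglycan Dcn by 0.16 (adjusted p = 0.206). All 6 had a change above 0, with a median of 0.15, beside 47.4% of all probe sets above 0. At an unadjusted p under 0.05 from limma 3 were higher, beside 9.29% of all probe sets. Of 9 transcription factors of fibroblasts Runx1 was higher, by 0.79 (adjusted p = 0.0129 from limma), and the others did not pass. Their changes ran from -0.54 to 0.79, with 7 above and 2 below 0. At an unadjusted p under 0.05 from limma 3 were higher and 1 was lower, beside 9.29% and 12.6% of all probe sets. Of 15 genes that fold and modify collagen in the endoplasmic reticulum P4ha3, a subunit of prolyl hydroxylase, and Plod2, a lysyl hydroxylase, were higher, by 1.13 (adjusted p = 0.00111) and 0.47 (adjusted p = 0.03), and 13 did not pass. With the mean of the 6 general fibroblast genes as a covariate, which holds Lum itself and lay between 10.09 and 10.64 in AngII and between 9.85 and 10.16 in vehicle arrays, none of the 32 genes was called, beside 0.106% of all probe sets. In that fit the median change was 0.50 for the activated and -0.13 for the resting genes.

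Markers of other cells of the vessel wall were read beside these genes. Of 8 macrophage markers 5 were higher and none was lower, among them Mpeg1, a pore-forming protein, by 1.50 (adjusted p = 0.0121 from limma), the complement gene C1qb by 0.78 (adjusted p = 0.0341), lysozyme Lyz2 by 0.78 (adjusted p = 0.0383) and Cd68, a lysosomal glycoprotein, by 0.73 (adjusted p = 0.0219). The mean of the macrophage markers lay between 8.55 and 9.60 in AngII and between 7.82 and 8.62 in vehicle arrays. Both measured tendon cell markers were higher, the transcription factor Scx by 1.03 (adjusted p = 0.00166) and the membrane protein Tnmd by 0.97 (adjusted p = 0.00966). None of 6 smooth muscle markers was called, all had a change below 0, and their mean lay between 11.93 and 12.52 in AngII and between 12.20 and 12.66 in vehicle arrays. None of 7 endothelial markers was called, with means between 8.07 and 9.53 in AngII and between 8.40 and 9.35 in vehicle arrays. None of 7 adipocyte markers was called, and the same held for 2 Schwann cell markers and 1 mesothelial marker. All 7 adipocyte markers had a change above 0, from 0.51 to 0.68 with a median of 0.60. Their mean lay between 8.59 and 10.86 in AngII and between 8.10 and 10.90 in vehicle arrays. No lymphocyte marker of 4 was analysed here. With the adipocyte mean as a covariate, 7 of the 13 calls held, those of Dpt, Cd248, Srpx2, Cthrc1, Fn1, S100a4 and Emp1, beside 2.86% of all probe sets called.
Once the group means had been subtracted, the median correlation between 2 genes over the 15 arrays was r = 0.26 among resting genes (120 pairs), r = 0.36 among activated genes (120 pairs) and r = -0.10 between the sets (256 pairs). The points of each correlation are the same 15 pieces of tissue, so cell makeup, dissection and RNA quality are shared by all genes. The closest pairs were Mfge8 with Ecm1 (r = 0.93), Cdh11 with Sparc (r = 0.90), Tnc with Mfge8 (r = 0.88) and Pi16 with Cd34 (r = 0.85). Scara5 with Postn (r = -0.92), Gsn with Postn (r = -0.83) and Cd34 with Fn1 (r = -0.82) ran most against each other.
Pdpn followed the mean of the 8 macrophage markers, with r = 0.94 over all 15 arrays after subtraction of the group means, r = 0.94 within the 8 AngII and r = 0.95 within the 7 vehicle arrays, and r = 0.91 within AngII arrays without AngII 8. S100a4 did not (r = -0.08 over the 15 arrays). Tnc ran against the mean of the 7 endothelial markers (r = -0.93; r = -0.95 within AngII and r = -0.87 within vehicle arrays), as did Fn1 (r = -0.81), while Dpt followed it (r = 0.86). Fap ran against the mean of the smooth muscle markers (r = -0.83), as did Pdpn (r = -0.81) and Dpt (r = -0.70). The r with that mean was above 0 for 5 of 16 resting and 8 of 16 activated genes. Pdpn also followed the adipocyte mean (r = 0.65), and Fap the macrophage mean (r = 0.63). Apart from that of S100a4, these relations were picked as strong ones among all 32 genes and marker means. Over each set, the median r with the general fibroblast mean was 0.50 for the resting and 0.08 for the activated genes, and the median r with the endothelial mean was 0.37 for the resting and -0.58 for the activated genes. The part of macrophages, endothelium and smooth muscle in the changes was not tested.

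**Figure D5:**
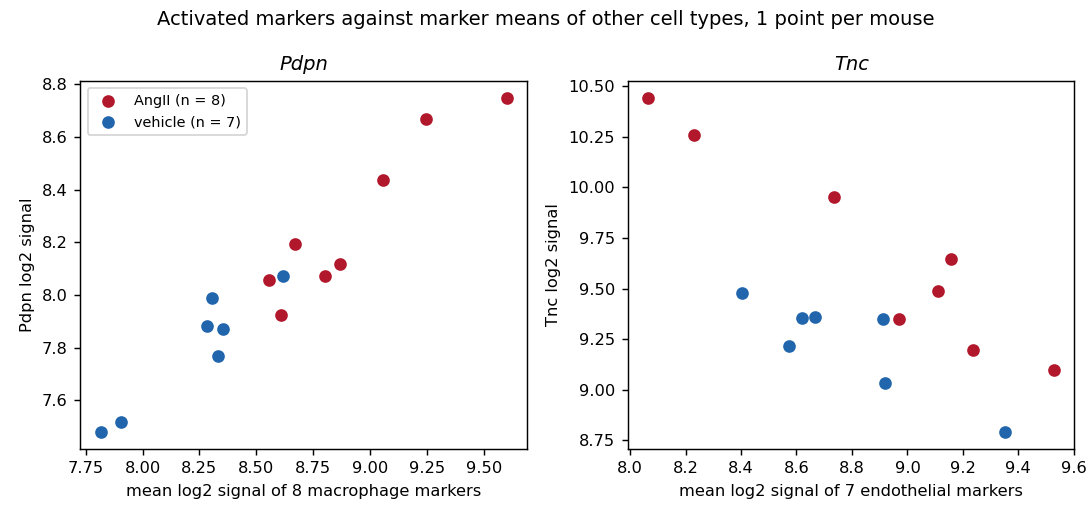
Log2 signal of Pdpn against the mean log2 signal of 8 macrophage markers, and of Tnc against that of 7 endothelial markers, with 1 point per mouse (8 AngII in red, 7 vehicle in blue). Pdpn lies along 1 line through both groups, and Tnc falls as the endothelial mean rises, with 3 AngII points at the upper left.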

How the data were processed

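RNA from whole mouse aorta was hybridised to Affymetrix arrays, 8 AngII and 7 vehicle, and the labels and the methods name different extraction kits. The authors corrected, normalized and summarized the probe intensities by RMA in Expression Console (version 1.1.2) and deposited log2 values for 15095 probe sets, of which 13403 carry 1 gene symbol, 958 several and 734 none here. The genome build of the array annotation is not given in the sources used here.

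The deposited log2 values were tested without further normalization or filter with limma 3.58.1 in R 4.3.3 (lmFit and eBayes), AngII against vehicle over all arrays, and p-values were adjusted by the Benjamini-Hochberg method over the whole table, with 0.05 as the threshold. SAM, the test that the methods name, was rerun with 100 permutations and called at q = 0. The 2 tests were tested on simulated data. Fold changes are 2 to the power of the log2 change. Gene symbols of the lists were updated through RefSeq synonyms (Ctgf to Ccn2, Wisp1 to Ccn4 and the like), and promoter windows came from a RefSeq table of GRCm38.p6, apart from the arrays.

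Every measured gene of the 2 sets is named. Of the other lists, called genes are named, at most 4 per list by size of change, and Pdgfra, Dcn, Col1a1 and Acta2 whatever their value. The genes and lists were chosen with earlier results of these data known. Alternatives were the naming series as a block or alone, covariates, SAM, array weights, quantile normalization, a low-signal filter, the mean of all probe sets of a gene, a replicate block and leaving out arrays. Precision is limited by how many arrays there are. That the samples of a group are separate mice is taken from the study's text.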

Additional observations from a re-analysis of the deposited data

Results flagged for a closer look

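In each group the highest and the lowest array of each of the 32 genes were checked against Dixon's critical value for the group's size, and 4 of 64 sets of values held an array that stood apart. Chance alone gives about 1 in 20. For Srpx2, AngII 6 was the lowest AngII array at 7.41, with the next at 8.13, a gap of 0.652 of the group's range. For Ccdc80, AngII 6 was the lowest at 10.04, with the next at 10.37, a gap of 0.534 of the range. For Cygb, vehicle 4 was the highest vehicle array at 10.81, with the next at 10.51, a gap of 0.672 of the range. For Mfge8, vehicle 2 was the highest vehicle array at 11.45, with the next at 11.20, a gap of 0.574 of the range.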

How the results depend on the processing

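The number of called genes moved with the fit, and so did the share of all probe sets called. The resting genes higher, resting genes lower and activated genes higher numbered 4, 1 and 8 as reported. In naming series B alone they numbered 1, 0 and 4, in series A alone 0, 0 and 1, with an adipocyte covariate 2, 0 and 5, and with the general fibroblast mean as a covariate 0, 0 and 0. Of all probe sets 2.47%, 0.053%, 2.86% and 0.106% were called in these fits, in that order, beside 5.33% as reported. With SAM at q = 0 they numbered 1, 0 and 4, and without the 3 least correlated arrays, a setting chosen after seeing the data, 2, 0 and 5. The shares of all probe sets were 1.55% and 3.52%. When each array was left out in turn they numbered 2 to 4, 0 to 1 and 4 to 9, with 2, 0 and 4 without vehicle 5. The share of all probe sets then ran from 2.28% without vehicle 5 to 7.94% without AngII 6. The calls of Dpt, Cd248, Srpx2, Cthrc1, S100a4 and Emp1 held without any single array.

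The replicate numbers did not pair the samples. Deviations of samples with the same number correlated between -0.456 and 0.416, over 0.1 for 4 of 7 pairs, and 1 of 7 arrays correlated best with its own number. With the replicate block on arrays 1 to 7, which drops AngII 8, the numbers were 0, 0 and 3 (Cdh11, Srpx2 and Emp1). Of all probe sets 1.27% were called in that fit.

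The medians of the activated genes kept their direction in every setting. The median of the resting genes was -0.000267 in series A alone and -0.135 with the general fibroblast covariate. The following genes, none of them called, changed direction. In series B alone Cd34 was at 0.10, Ackr3 at -0.0148 and Mfge8 at -0.0192. In series A alone Pi16 was at -0.0456, Dpp4 at -0.13, Scara5 at -0.0487, Sema3c at 0.12 and Pdgfra at -0.13. With the general fibroblast covariate Pi16 was at -0.12, Scara5 at -0.25, Ackr3 at -0.13, Smoc2 at -0.16, Pdgfra at -0.26 and Dcn at -0.0171. With single arrays left out, Cd34 lay between -0.104 and 0.0323, above 0 without vehicle 1, vehicle 4, AngII 1 or AngII 2, and Ackr3 between -0.0504 and 0.0968, below 0 without vehicle 7 or AngII 6. The cause was not tested.

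Quantile normalization and the low-signal filter kept the same 13 calls, beside 5.3% of all probe sets and 6.35% of the 11321 that the filter kept. The filter left out Dpp4. The mean of all probe sets of a gene ended the call of Ccdc80 alone, beside 5.88% of 12848 genes called.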
